A study of Mus musculus with 4 samples.

Results

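Cxcl12-high Lepr-positive stromal cells are the reticular support cells of the marrow, known as CXCL12-abundant reticular cells or Lepr+ stromal cells. They line sinusoids, secrete the chemokine CXCL12 and the kit ligand (Kitl) that hold and sustain hematopoietic stem and progenitor cells, and carry the leptin receptor (Lepr). Cells of this kind are also known as a source of marrow adipocytes and of osteoblasts, and many of them transcribe adipocyte genes such as Adipoq without being fat cells. The question here is what these cells express in young limb marrow and how far transcripts of the fat and bone programmes differ from cell to cell.

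A cell entered the population when it held at least 1000 UMIs (unique molecular identifiers, 1 per captured transcript), 500 genes or more and no more than 10% mitochondrial UMIs. It also had to hold Cxcl12 at 2000 CPM or more (the gene's UMIs divided by all UMIs of the cell and scaled to a common total), at least 1 Lepr UMI and at least 1 UMI of Kitl or Adipoq. Cells with any UMI of the endothelial genes Cdh5 or Pecam1, or with S100a8 and S100a9 at 20000 CPM or more together, were left out. Of 16658 cells that passed the first 3 limits, 1120 were members. Since Cxcl12, Lepr, Kitl and Adipoq chose the members, their levels below are a description with no test.

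The limb marrow was taken at postnatal day 12 from mice on the C57BL/6 background. The labels name 3 controls and 3 mutants of genotype Prx1-cre;Mettl3-fl/fl as the source of live CD45-negative, Ter119-negative cells (DAPI-negative and Calcein-AM-positive) for 10x Genomics 3′ libraries with a target of 5000 cells. Prx1-cre drives recombination in limb mesenchyme, not only in stromal cells, and the Mettl3 protein is the enzyme that adds m6A to RNA. Each genotype has 2 libraries, and control 1 and mutant 1 form one processing batch (batch 1) and control 2 and mutant 2 the other (batch 2). The label of mutant 2 gives its genotype as mutant only, the alleles of the control mice are not given in the sources used here, and neither is which mice went into which library. P-values therefore cover the spread between libraries only, and this spread can be technical. The library numbers were given in deposition order and serve as names.

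Nearly all members were control cells, and nearly all of those came from 1 library. Control 1 held 1017 of 5808 kept cells (17.5%, exact 95% binomial interval 16.5 to 18.5) and control 2 held 47 of 3635 (1.29%, 0.952 to 1.72). Mutant 1 held 43 of 2628 (1.64%, 1.19 to 2.20) and mutant 2 held 13 of 4587 (0.283%, 0.151 to 0.484). The intervals cover counting error only, and the 2 control shares lie further apart than the shares of control 2 and mutant 1. The median member of control 1 held 5902 UMIs, that of control 2 7455, that of mutant 1 10437 and that of mutant 2 12511, and the members' UMIs summed to 7201776, 354100, 480584 and 205860 in the same order. Library pairs shared 2 to 10 barcodes among kept cells.

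In the control libraries most members lay far above the Cxcl12 limit. Of 1078 Cxcl12-high cells in control 1, 1030 held Lepr, 1026 of these Kitl or Adipoq, and 1017 remained after the endothelial and neutrophil limits; control 2 went from 49 to 47. Median Cxcl12 inside the gate was 20815 CPM in control 1 and 19867 CPM in control 2. In control 2 the lowest member held 8733 CPM, and the highest cell below the limit that met every other gate rule held 787 CPM. In control 1 the corresponding values were 2147 and 1823 CPM. There, 26 members stood at 2000 to 4000 CPM, and 10 cells that met every other rule at 1000 to 2000 CPM. Cells below the limit that failed another rule are not in these values. Cxcl12 (ENSMUSG00000061353, chromosome 6, 117168535 to 117181367, plus strand of mm10) was at 10000 CPM or more in 935 of 1017 and 46 of 47 control members.

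The mutant libraries showed no such separation. Of 66 Cxcl12-high cells in mutant 1, 46 held Lepr and 43 passed the gate, and of 52 in mutant 2, 19 held Lepr and 13 passed. Median Cxcl12 of those that passed was 4727 and 7090 CPM, and only 2 cells in each mutant library reached 10000 CPM. In mutant 1, 14 members stood at 2000 to 4000 CPM, and 21 cells that met every other gate rule stood just outside at 1000 to 2000 CPM. These cells passed the gate by its rule, but they sit near its limits and, in the genotype comparison, differ from control members in many other genes, so they are called gated mutant cells here.

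**Figure D1:**
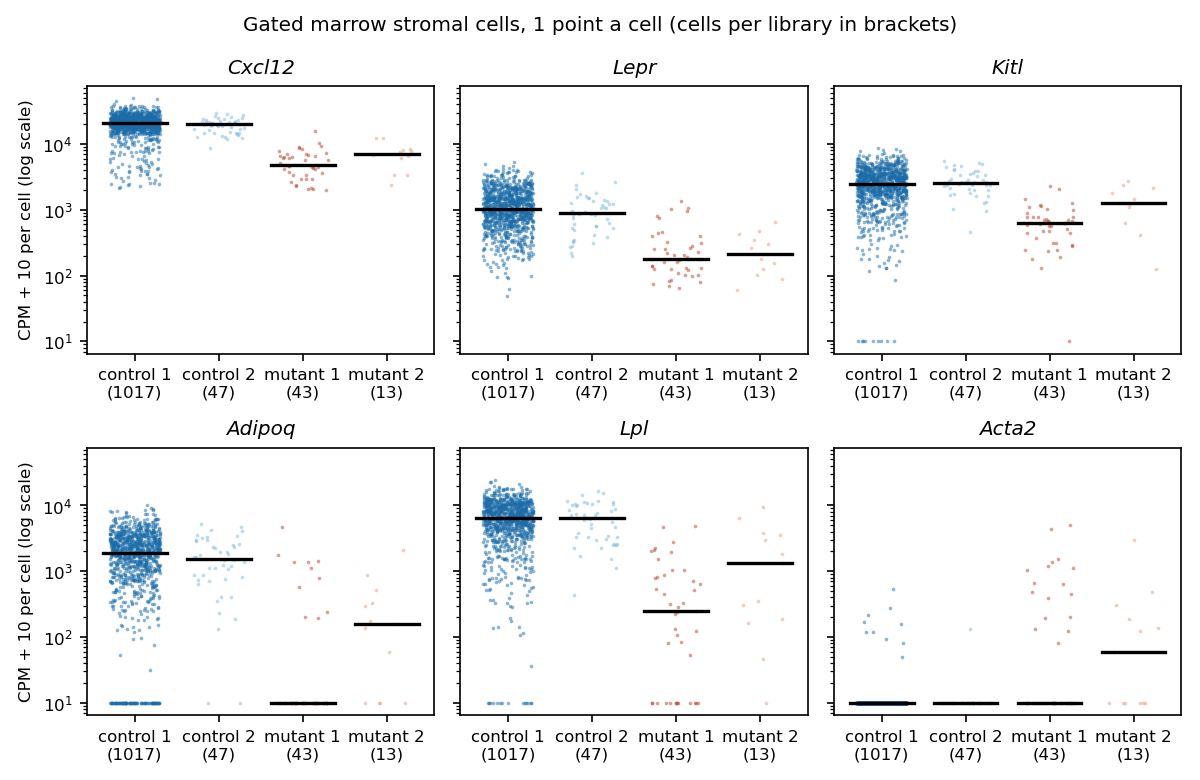
CPM plus 10 on a log axis for Cxcl12, Lepr, Kitl, Adipoq, Lpl and Acta2 in every gated cell of the 4 libraries, 1 point per cell, with a black line at the library median. Control cells sit together at high Cxcl12, Kitl, Adipoq and Lpl, gated mutant cells spread toward the Cxcl12 limit of 2000 CPM and many hold no Adipoq UMI, and Acta2 reaches 1000 CPM only in 7 cells of mutant 1 and 1 cell of mutant 2.

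The other 3 gate genes were broadly present in control members. Lepr (chromosome 4, 101717404 to 101815352, plus strand), the receptor for the adipocyte hormone leptin, had a median of 1030 CPM per cell in control 1 and 878 CPM in control 2, and 944 and 42 cells held at least 2 UMIs of it. Kitl (chromosome 10, 100015630 to 100100416, plus strand), the ligand of the stem cell receptor Kit, had medians of 2494 and 2575 CPM. Adipoq (chromosome 16, 23146536 to 23158028, plus strand), the adipocyte hormone adiponectin, had medians of 1903 and 1507 CPM and at least 1 UMI in 933 of 1017 and 45 of 47 cells. The gate accepted Kitl in place of Adipoq, so this high share of Adipoq-positive cells was not required by it. In gated mutant cells, Adipoq was found in 11 of 43 and 9 of 13.

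Endothelial and neutrophil genes were low in the control members. The gate set this in part, since it left out cells with Cdh5 or Pecam1 UMIs or high S100a8 and S100a9. The summed level of 16 endothelial markers was 146 and 138 CPM in control 1 and control 2, and that of 12 neutrophil markers 27.8 and 50.8 CPM. The 13 pericyte and smooth muscle markers summed to 448 and 387 CPM, with Abcc9 at 123 and 130 CPM and Rgs4 at 107 and 73.4 CPM. No control member reached 1000 CPM of Acta2, the smooth muscle actin, and 1 held a UMI of the leukocyte gene Ptprc. Erythroid transcripts were higher in sum, because 12 erythroid markers reached 7302 CPM in control 1 against 1525 CPM in control 2. In control 1, 74 members held at least 2 UMIs of a set of erythroid genes that includes Alas2 and Klf1, and their median depth was 11110.5 UMIs against 5746 in the rest. Control 2 had 1 such member. Values with these cells left out are given beside the main counts; this check was added after seeing the data.

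To place the members, control stromal cells were compared with cells of the bone-forming lineage from the same libraries: Col1a1 at 2000 CPM or more, at least 1 Ibsp UMI and Cxcl12 below 2000 CPM, which gave 302 cells in control 1 and 34 in control 2. Per library, the counts of each class were added up and tested with edgeR's quasi-likelihood test, with the library as a block and Benjamini-Hochberg adjustment over 11782 genes at 0.05. Of these genes, 28.9% were called, with 1635 higher (13.9%) and 1772 lower (15%) in the stromal cells. The classes were chosen by transcripts of the same cells, so Cxcl12, Col1a1 and Ibsp are no results here. Log2 differences below are stromal minus osteolineage on the scale of fitted CPM. The standard errors (SE) given with them, here and in later comparisons, come from the fit, which shares spread across genes. They are not the spread between the 2 libraries. Each gene's level in CPM is its share of summed UMIs, not scaled to transcript length.

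Most niche factors were higher in stromal than in osteolineage cells, the only class they were tested against. Of 27 tested niche factors, 21 were higher and 3 lower, with a median log2 difference of 3.30 against 0.07 over all genes. Il7, the cytokine that B-cell progenitors need, was at 187 CPM in stromal and 0.761 CPM in osteolineage cells of control 1, and at 260 and 0 CPM in control 2 (log2 difference 7.36 ± 0.45, adjusted p = 3.15e-05). Igf1, a growth factor, stood at 1444 against 23.8 CPM in control 1 and 1658 against 2.02 CPM in control 2 (5.92 ± 0.60, adjusted p = 0.000269). Both genes separated the classes in each library.

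The adhesion molecule Vcam1, which holds blood progenitors to stroma, was at 2353 against 3.50 CPM and 1875 against 3.04 CPM (8.50 ± 0.28, adjusted p = 1.15e-05). Csf1, a growth factor of macrophages and osteoclasts, was higher too, with 279 against 28.6 CPM and 378 against 14.2 CPM (2.97 ± 0.36, adjusted p = 0.000657). Angpt1, Gas6, Cxcl14, Bmp4, Vegfa, Vegfc and Tnfsf11, the osteoclast factor RANKL, were also higher, with log2 differences from 2.06 (Vegfa) to 7.59 (Cxcl14). The 3 niche factors that were lower are Spp1 (osteopontin), Tgfb1 and Tnfrsf11b. Spp1 had 982 against 14335 CPM and 387 against 13436 CPM (-5.29 ± 0.30, adjusted p = 2.46e-05), and Tgfb1 38.3 against 196 CPM and 31.1 against 163 CPM (-3.20 ± 0.25, adjusted p = 7.99e-05). Tnfrsf11b, the decoy receptor for RANKL, passed narrowly (-1.37 ± 0.43, adjusted p = 0.0463) and did not pass with DESeq2 (adjusted p = 0.22) or with library totals as the only scaling (adjusted p = 0.31).

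Transcription factors known from these cells followed the same split. Foxc1, which maintains the reticular cells, was at 578 against 34.1 CPM in control 1 and 650 against 42.5 CPM in control 2 (3.19 ± 0.23, adjusted p = 5.39e-05). Ebf3, which keeps the same cells from turning into bone, was at 610 against 6.24 CPM and 811 against 4.05 CPM (6.04 ± 0.33, adjusted p = 2.31e-05). Ebf1 and Snai2 were higher too (3.26 and 3.49). Over the list of stromal regulators, 14 of 22 were higher and 4 lower (Nes, Irx5, Gli1 and Cd200), with a median of 1.30. Prrx1, the limb mesenchyme factor whose enhancer drives Prx1-cre, was at 305 against 181 CPM and 426 against 183 CPM and was not called (0.15 ± 0.23, adjusted p = 0.681). The platelet-derived growth factor receptors were both higher, with Pdgfrb at 4.97 ± 0.36 and Pdgfra at 0.73 ± 0.21 (adjusted p = 0.0354), a call that was lost with DESeq2 (adjusted p = 0.16).

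**Figure D2:**
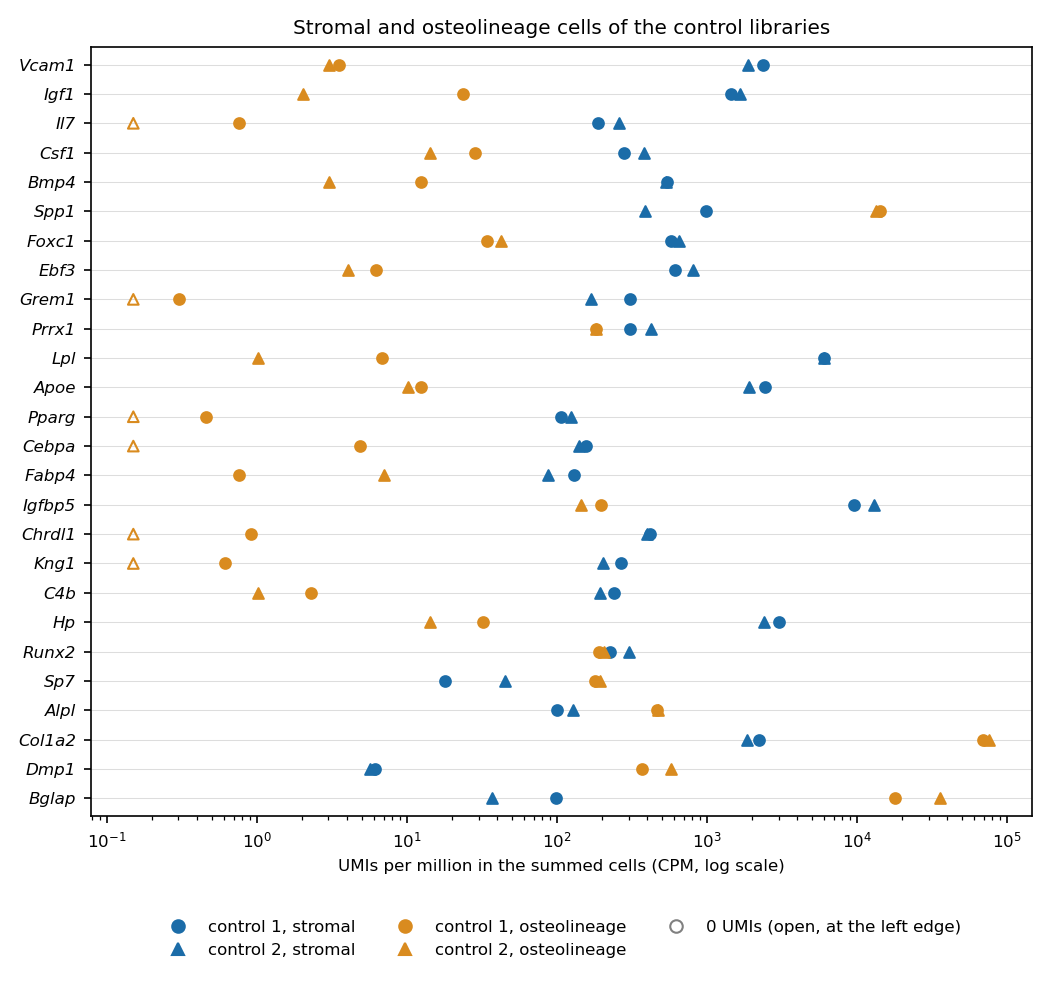
CPM on a log axis of 26 genes in the summed stromal and osteolineage cells of control 1 and control 2, with open symbols at the left edge where no UMI was counted. Niche, adipogenic and signalling genes such as Vcam1, Il7 and Lpl are high in both stromal sums, bone genes such as Bglap, Dmp1 and Spp1 are high in both osteolineage sums, and Runx2 lies between 190 and 302 CPM in all 4.

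Adipocyte-programme transcripts set the members apart from bone-forming cells, while Plin1, Cidec, Cfd and Retn were at or near 0. Of 21 tested adipogenic genes, 12 were higher and 2 lower, with a median of 1.55. Lpl (chromosome 8, 68880491 to 68907448, plus strand), the lipase that releases fatty acids from lipoproteins, was at 6061 against 6.85 CPM in control 1 and 6046 against 1.01 CPM in control 2 (9.37 ± 0.44, adjusted p = 2.07e-05). Apoe, a lipid carrier, was at 2444 against 12.5 CPM and 1906 against 10.1 CPM (6.75 ± 0.25, adjusted p = 1.59e-05). Pparg, the master regulator of fat cell formation, had 106 and 124 CPM in stromal cells and 0.457 and 0 CPM in osteolineage cells. Cebpa, its partner factor, had 155 and 141 CPM against 4.87 and 0 CPM (4.52 ± 0.49, adjusted p = 0.000374), but was not called with DESeq2 (adjusted p = 0.058). The 2 lower genes, Scd1 and Scd2, encode fatty acid desaturases (-3.37 and -1.63).

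Among markers of lipid-laden fat cells, Plin1 had 23 UMIs over all 1017 members of control 1 and none in control 2, and Cidec had none in either. Cfd (adipsin) had 8 and 2 UMIs, and Retn (resistin) 2 and 0. Fabp4, the fatty acid binding protein of fat and endothelial cells (chromosome 3, 10204088 to 10208576, minus strand), was at 129 and 87.5 CPM in stromal cells against 0.761 and 7.09 CPM. The members thus held the early genes Lpl, Apoe, Pparg and Cebpa and the hormone gene Adipoq, next to at most 23 UMIs a library of the lipid droplet genes Plin1 and Cidec. Not every gene of fat storage was this low. Plin2, a lipid droplet gene of the adipogenic list, had 383 and 11 UMIs (53.2 and 31.1 CPM). Car3, of the mature adipocyte list, had 208 and 5 UMIs (28.9 and 14.1 CPM).

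Bone-programme genes were lower in the members, but not all of them. Of 25 tested osteogenic genes, none was higher and 21 were lower, with a median of -4.05; with library totals as the only scaling, under which 54.8% of all genes were called, 3 were higher and 19 lower. The late osteoblast gene Bglap (osteocalcin) was at 99.1 against 17830 CPM in control 1 and 36.7 against 35874 CPM in control 2 (-9.22 ± 0.54, adjusted p = 2.83e-05). Its reads can be shared with the near-identical copy Bglap2. Dmp1 of osteocytes (-6.89 ± 0.30), Col1a2 (-5.98 ± 0.17), the osteoblast factor Sp7 (-3.73 ± 0.36) and the alkaline phosphatase Alpl (-2.90 ± 0.23) were lower as well.

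Runx2, the factor that commits cells to bone, was not among the lower genes. It stood at 226 against 190 CPM in control 1 and 302 against 206 CPM in control 2, and the log2 difference of -0.43 ± 0.22 did not pass (adjusted p = 0.188). Its sign turned with library totals as the only scaling (0.39, adjusted p = 0.15). The other 3 tested genes of the list that were not called lower are Mmp13, Limch1 and Kcnk2. Mmp13, a collagenase, was at 1480 and 1618 CPM in the members.

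Inhibitors of BMP, WNT and IGF signals were mostly higher in stromal than in osteolineage cells, with 13 of 21 higher, 5 lower and a median of 3.92. Chrdl1, a BMP antagonist, was at 418 against 0.914 CPM and 398 against 0 CPM (8.18 ± 0.43, adjusted p = 2.19e-05). Igfbp5, an IGF-binding protein, was at 9606 against 197 CPM and 13044 against 144 CPM (5.22 ± 0.29, adjusted p = 2.31e-05). The 5 lower genes were Dkk1, Bambi, Wif1, Frzb and Notum, so WNT inhibitors stood on both sides: Sfrp1 and Sfrp4 were higher (3.92 and 3.07) and Wif1 lower (-1.85 ± 0.27).

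Complement and kininogen genes, better known from liver, were higher in 10 of 12 cases with a median of 4.90. Kng1, a kininogen, was at 266 against 0.609 CPM and 203 against 0 CPM (8.03 ± 0.43, adjusted p = 2.31e-05), and Hp (haptoglobin) at 3012 against 32.3 CPM and 2412 against 14.2 CPM (6.03 ± 0.30, adjusted p = 2.13e-05). Interferon-response genes were higher in 16 of 19 cases with none lower (median 2.31), and antigen presentation genes in 8 of 15 with none lower (median 1.89). Bst2 (1.98 ± 0.26) and H2-D1 (1.14 ± 0.20) are examples. Immediate early genes were lower in 10 of 20 cases with none higher (median -1.31), among them Klf4 (-5.77 ± 0.37); with library totals alone 4 were higher and 8 lower.

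Matrix genes divided between the classes, 18 higher and 11 lower of 36 tested (median 1.09). Basement membrane genes (Col4a1, Col4a2, Lama4, Lamb1, Nid1, Nid2) were on the stromal side, and Fn1, Postn, Dcn, Lum, Bgn, Col5a1 and Col5a2 on the osteolineage side. The 10 most strongly supported genes on the stromal side were Vcam1, Apoe, Trf, Esm1, Agt, Igfbp7, Lpl, H19, Serping1 and Hp. On the osteolineage side they were Col1a2, Sparc, Serpinf1, Col11a2, Car3, Ifitm5, Dmp1, Col11a1, Col22a1 and Cthrc1. The scale matters for the totals: with library totals in place of TMM factors the median gene moved from 0.07 to 0.90, and 5585 genes were higher and 871 lower. With cells of at least 2 erythroid UMIs left out, 2758 were higher and 2741 lower. In both of these alternative fits, unlike the main fit, genes of like abundance shared 1 spread.

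Within the control members, transcripts of the fat and bone programmes were found side by side. To compare cells of unequal depth, each cell was thinned to 2000 UMIs, which left out 35 shallower cells of control 1 and 1 of control 2. Erythroid cells of the same libraries (globin at 50000 CPM or more) served as cells that should lack these genes; their median depth was 13840 and 16567 UMIs in the controls, against 5902 and 7455 in the members. At equal depth, Lpl was found in 96.8% and 100% of control members and 0.967% and 0% of erythroid cells (98.6% and 100% of members before thinning). Adipoq was found in 87.0% and 78.3% of members and 0.0879% and 0% of erythroid cells. These 2 genes marked most cells in both libraries.

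Bone transcripts were rarer but also above the erythroid level. Runx2 was found in 35.0% and 37.0% of thinned control members (69.7% and 74.5% unthinned) and in 0% and 0.270% of erythroid cells. Mmp13 was found in 67.6% and 50% (0.527% and 0.135% of erythroid cells), and Ibsp, a mineralization protein, in 30.8% and 32.6% (0.439% and 0%). Spp1 was found in 26.4% and 34.8% (2.90% and 1.08%). Unthinned, 80.9% and 70.2% of control members held Mmp13, 42.9% and 44.7% held Ibsp and 42.4% and 42.6% held Spp1. Sp7 and Bglap were near the bottom, in 3.67% and 2.17% (Sp7) and 3.46% and 8.70% (Bglap) of members, against 0.176% and 0% and 1.41% and 2.57% of erythroid cells. The unthinned shares were 8.85% and 21.3% for Sp7 and 7.18% and 21.3% for Bglap. Ibsp and Col1a1 define the osteolineage comparator but not the members, and 35 of 1017 and 2 of 47 control members held Col1a1 at 2000 CPM or more.

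In control 1, bone genes were among the most variable genes from cell to cell. At equal depth in control 1, the variance of Spp1 UMIs per cell was 68.9 times their mean, that of Col1a1 20.5 times and that of Ibsp 13.0 times. In single cells Spp1 had a median of 0 CPM in both control libraries, while 10% of cells held more than 1097 CPM in control 1 and 1083 CPM in control 2. Lpl had a variance of 4.94 times its mean and medians of 6490 and 6449 CPM. In the 46 thinned cells of control 2 the ratio was 3.75 for Spp1, 1.38 for Col1a1, 5.92 for Ibsp and 17.6 for Mmp13, so the order of the genes was not shared by the libraries.

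Each cell was then scored by how many of 24 adipogenic and how many of 28 osteogenic genes it held at 2000 UMIs. The median member held 4 adipogenic genes in both controls (0 to 10 in control 1, 1 to 6 in control 2) and 5 osteogenic genes in both (0 to 17 and 3 to 11). Osteolineage cells of the same libraries held a median of 1 adipogenic and 12 osteogenic genes, and erythroid cells 0 of each. The members held more adipogenic genes than both, and their median of osteogenic genes lay between the medians of the other cells. Much of the members' osteogenic UMIs came from Sparc, Col1a2 and Mmp13. In control 1 these averaged 8.59, 4.09 and 3.29 UMIs per thinned cell, of 22.58 for the list. The control 2 values were 6.63, 3.41 and 2.935, of 18.87.

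**Figure D3:**
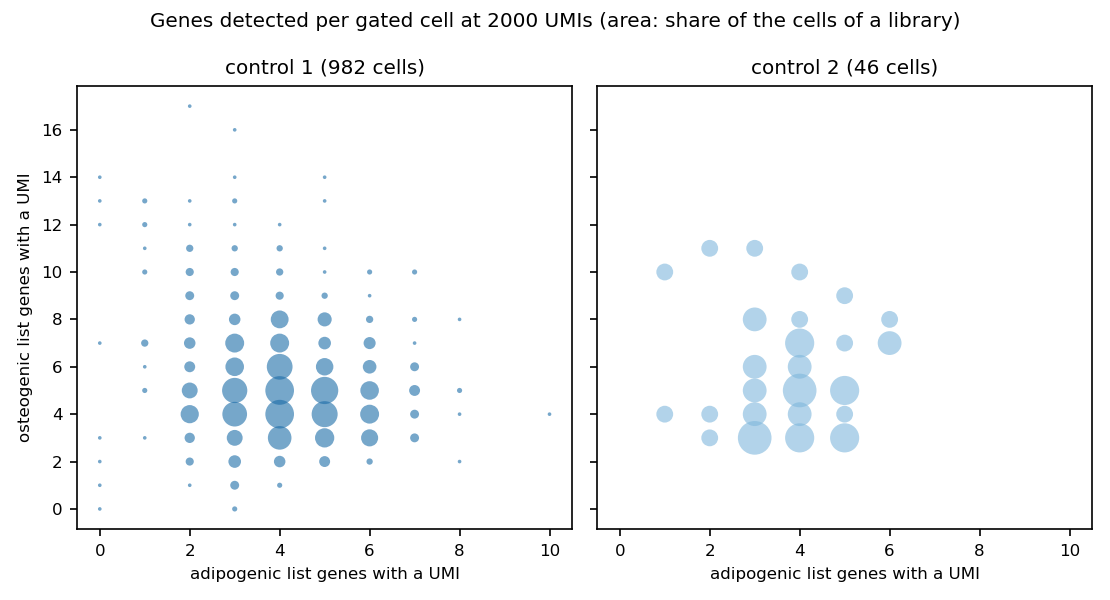
Number of adipogenic genes (x axis) against number of osteogenic genes (y axis) detected per control stromal cell at 2000 UMIs, where bubble area is the share of the library's scored cells, 982 in control 1 and 46 in control 2. The cells form 1 cloud around 4 adipogenic and 5 osteogenic genes in both libraries.

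The relation of the scores is given over cells, which share libraries and are no replicates. Pearson's r was -0.16 over 982 cells of control 1 (Spearman's rho -0.12) and -0.03 over 46 cells of control 2 (rho 0.05). It was -0.23 in control 1 without erythroid-UMI cells. In control 2 it was -0.41 over 42 cells thinned to 4000 UMIs and -0.22 with the UMIs of each list summed, so its size there changed with the scoring. In control 1, 155 cells were high for adipogenic and low for osteogenic genes (at least 5 and at most 4 genes), 143 were the reverse (at most 3 and at least 6), 101 were high for both and 129 low for both. In control 2 the groups of the same names held 9, 5, 10 and 9 cells. There, high meant at least 4 adipogenic or at least 7 osteogenic genes, while the low limits were the same. The limits were set within each library, so the counts of the 2 libraries are not on 1 scale. No group was empty in either library.

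Next, members with many osteogenic genes were compared with members with few, to see which other genes moved with the score. The groups held 358 cells (at least 6 genes) and 400 cells (at most 4) in control 1, and 15 cells (at least 7) and 18 cells (at most 4) in control 2. Their median depths were 6111 and 6177.5 UMIs in control 1 and 7514 and 6332 UMIs in control 2, high before low. The 28 score genes are set by the split and are no results. Of 9913 genes, 3.49% were called, 112 higher (1.13%) and 234 lower (2.36%) in the osteogenic-high cells, by edgeR's quasi-likelihood test with the library as a block. Both groups come from the same cells that gave the score, so the test speaks for these 2 libraries only.

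Matrix genes led the osteogenic-high cells, with 10 of 35 higher and 1 lower (median 0.31 against -0.01 over all genes). Fn1, fibronectin (chromosome 1, 71585520 to 71653200, minus strand), rose from 53.5 CPM in low to 381 CPM in high cells of control 1 and from 87.8 to 430 CPM in control 2 (log2 difference 2.65 ± 0.25, adjusted p = 3.87e-22). Tnc, tenascin C (chromosome 4, 63959785 to 64047015, minus strand), went from 367 to 1466 CPM and from 490 to 1585 CPM (1.80 ± 0.26, adjusted p = 2.15e-09). Both genes rose in each library. Postn, periostin (chromosome 3, 54361109 to 54391037, plus strand), went from 1.86 to 54.2 CPM and from 0 to 71.6 CPM (4.83 ± 0.51, adjusted p = 2.71e-18). Col8a1, Col12a1, Col6a3 and Vcan were higher as well, with log2 differences from 1.12 (Col12a1) to 2.43 (Col8a1).

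Olfml3, a secreted olfactomedin-like protein, had the smallest p, at 21.0 against 225 CPM in control 1 and 58.5 against 179 CPM in control 2, low before high (3.08 ± 0.28, adjusted p = 8.59e-24). The phosphate transporter Slc20a2 (2.75 ± 0.33) and Nav2 (3.58 ± 0.46) followed. Of 23 niche factors, Igf1 alone was called, beside 3.49% of all genes, so the count says little about the list. It went from 974 to 2136 CPM and from 805 to 2436 CPM (1.25 ± 0.27, adjusted p = 0.000324). The other niche factors and the stromal regulators gave no call. Vcam1 was at 2279 and 2252 CPM in control 1 and 1888 and 1889 CPM in control 2 (-0.09 ± 0.28, adjusted p = 0.983), and 0 of 20 stromal regulators passed edgeR's test.

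**Figure D4:**
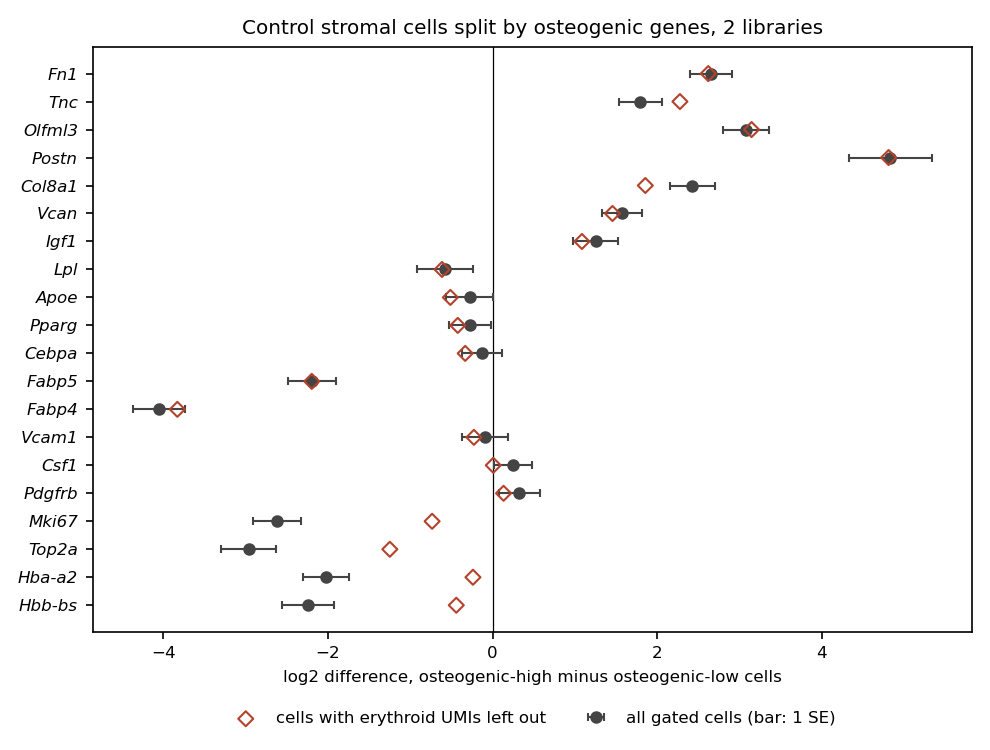
Log2 difference (osteogenic-high minus osteogenic-low control stromal cells) with bars of 1 SE for 20 genes, over all gated cells (filled) and with cells of at least 2 erythroid UMIs left out (open diamonds). Fn1, Tnc, Olfml3 and Postn are high and Fabp4 low in both versions, while Mki67, Top2a and Hbb-bs move toward 0 once the erythroid-UMI cells are left out.

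Most genes of the adipocyte programme were not called in the osteogenic split. Of 19 adipogenic genes, 2 were lower (Fabp5 and Cd36) and none higher, with a median of -0.13. Over all genes, 2.36% were lower and 1.13% higher, so the list was not called less often than genes at large. Lpl was at 6390 CPM in low and 5080 CPM in high cells of control 1, and at 7623 and 4782 CPM in control 2 (-0.58 ± 0.34, adjusted p = 0.602). Pparg (-0.27 ± 0.25, adjusted p = 0.874), Cebpa (-0.13 ± 0.24, adjusted p = 0.97) and Apoe (-0.28 ± 0.28, adjusted p = 0.899) were not called either. These p-values do not show that the levels are equal.

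Fabp4, which is not a score gene, was lower in the osteogenic-high cells. It fell from 247 to 12.2 CPM in control 1 and from 124 to 44.8 CPM in control 2 (-4.05 ± 0.32, adjusted p = 1.29e-32). It was found in 6.11% and 15.2% of thinned members (13.7% and 27.7% unthinned) and in 0.264% and 1.89% of erythroid cells. By library the log2 difference of Fabp4 was -4.35 in control 1 and -1.40 in control 2, and that of Olfml3 3.34 and 1.41. The SE of 0.32 for Fabp4 does not cover this gap between the libraries. Of 5 tested genes of mature adipocytes, 3 were lower (Fabp4, Adrb3 and Slc2a4).

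Proliferation and erythroid genes also fell with the osteogenic score: 16 of 18 cell cycle genes and 11 of 12 erythroid genes were lower. Mki67, a proliferation marker, went from 205 to 34.3 CPM in control 1 and from 29.3 to 8.95 CPM in control 2 (-2.62 ± 0.29, adjusted p = 4.08e-16), and the globin gene Hbb-bs from 5391 to 1041 CPM and from 1375 to 394 CPM (-2.24 ± 0.32, adjusted p = 4.58e-10). With the cells of at least 2 erythroid UMIs left out, none of 13 cell cycle genes and none of 7 erythroid genes was called, and the adjusted p was 1 for Mki67 and 0.83 for Hbb-bs. In that fit 63 genes were higher and 26 lower (0.933% of 9536 genes), against 112 and 234. Of the 142 control 1 members with a UMI of Mki67 or Top2a, 55 were among the erythroid-UMI cells. Fn1, Tnc, Olfml3, Postn, Col8a1, Slc20a2, Nav2, Igf1 and Fabp4 were called in that fit too, with doublet-scored cells removed, and with DESeq2, which called 9 genes higher and 7 lower in all.

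The split by adipogenic genes set 349 cells of control 1 (at least 5 adipogenic genes) against 341 (at most 3), and 28 cells of control 2 (at least 4) against 18. Of 9702 genes, 2.81% were called, 13 higher (0.134%) and 260 lower (2.68%) in the adipogenic-high cells. The 24 score genes, Lpl and Apoe among them, are no results here. With erythroid-UMI cells left out, 15 were higher and 31 lower (0.503% of 9141 genes).

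Among 21 osteogenic genes, 5 were lower and none higher (median -0.37 against -0.01 over all genes), namely Spp1, Col1a1, Alpl, Sgms2 and Ifitm5. Spp1 (chromosome 5, 104435118 to 104441050, plus strand) was at 1413 CPM in adipogenic-low and 421 CPM in adipogenic-high cells of control 1, and at 559 and 257 CPM in control 2 (-1.62 ± 0.20, adjusted p = 7.47e-05). Alpl was at 161 and 44.4 CPM and at 162 and 101 CPM (-1.66 ± 0.27, adjusted p = 0.000897). Fn1 was lower too, with 246 and 113 CPM and 344 and 60.5 CPM (-1.55 ± 0.25, adjusted p = 0.000683). Without erythroid-UMI cells, 9 of 22 osteogenic genes were lower and 2 higher, and Col1a1 was no longer called (adjusted p = 0.33). The 2 higher genes were the osteocalcin genes Bglap and Bglap2, near-identical copies that can share reads. Bglap was at 0.05 (adjusted p = 0.99) with all cells and at 3.68 without erythroid-UMI cells (adjusted p = 6.6e-34), and Bglap2 was at -0.37 (adjusted p = 0.95) and 2.64 (adjusted p = 7e-10). At a Cxcl12 minimum of 5000 CPM they were at 3.76 and 2.86. The cause of this change was not tested. Only 7 of 1017 members of control 1 and 0 of 47 of control 2 held Bglap and Bglap2 at 1000 CPM or more together. In both of these narrower fits, genes of like abundance shared 1 spread, and the small p-values rest on that. At a Cxcl12 minimum of 5000 CPM the sign of Col1a1 turned and Spp1 was not called (adjusted p = 0.84), and Alpl was not called with DESeq2 (adjusted p = 0.16).

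Ibsp was not called over all members (-0.37 ± 0.25, adjusted p = 0.739). Its levels were 1177 and 649 CPM in control 1 and 455 and 701 CPM in control 2, low before high, so the libraries disagreed. Fabp4 was the most strongly supported gene in adipogenic-high cells, with 57.2 and 255 CPM in control 1 and 71.5 and 101 CPM in control 2 (1.77 ± 0.28, adjusted p = 0.000641), a call lost with DESeq2 (adjusted p = 0.22).

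Immediate early genes were higher in 4 of 16 cases (Fos, Junb, Zfp36 and Btg2), with a median of 0.76, and none was called by edgeR with library totals as the only scaling, where 0.917% of all genes were called. Fos, a stimulus-induced transcription factor, was at 232 and 742 CPM in control 1 but at 364 and 403 CPM in control 2 (1.05 ± 0.25, adjusted p = 0.0212), so its rise rested on control 1, and its sign turned with scores from 4000 UMIs or from summed UMIs. Cell cycle genes were lower in 18 of 19 cases, and in 2 of 13 without the erythroid-UMI cells. Vcam1 had 1796 and 2800 CPM and 1553 and 2138 CPM and was not called (0.48 ± 0.16, adjusted p = 0.164).

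The last comparison is between genotypes among the cells that pass the gate. The targeted gene came first. Mettl3 (chromosome 14, 52294841 to 52305128, minus strand) stood at 14.7 and 8.47 CPM in control 1 and control 2 and at 2.08 and 14.6 CPM in mutant 1 and mutant 2, from 106, 3, 1 and 3 UMIs. These counts were too few for the filter on low counts and the gene was not tested, and a 3′ tag outside the deleted part would not show the deletion. The gate genes are no results: Cxcl12 stood at 18407 and 18983 CPM in the control sums and 4961 and 6422 CPM in the mutant sums, Lepr at 1093 and 1005 against 243 and 228 CPM, and Adipoq at 1971 and 1652 against 270.5 and 185 CPM.

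Counts were summed over the 1017, 47, 43 and 13 gated cells and tested with edgeR's quasi-likelihood test, with batch as a term. Of 6711 genes, 20.7% were called, 745 higher (11.1%) and 642 lower (9.57%) in gated mutant cells. With library totals as the only scaling, 616 were higher and 796 lower. Without the batch term, 215 were higher and 217 lower with every library kept. All genotype fits with 1 library left out, here and below, also lacked the batch term. They left 1 library in a group, so a call lost there cannot be laid to the missing library alone. The gated mutant cells are few, and leaving out any 1 library left 130 to 388 genes higher and 189 to 393 lower. Without control 1 the counts were 174 and 197, without control 2 179 and 259, without mutant 1 130 and 189, and without mutant 2 388 and 393.

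Of 21 niche factors, 10 were lower and 4 higher in the gated mutant cells, with a median of -0.49 against -0.03 over all genes. Igf1 (chromosome 10, 87858265 to 87937042, plus strand) was at 1444 and 1658 CPM in control 1 and control 2 and at 93.6 and 355 CPM in mutant 1 and mutant 2 (log2 difference -2.96 ± 0.30, adjusted p = 2.96e-06; -3.79 in batch 1 and -2.09 in batch 2). Vcam1 was at 2353, 1875, 196 and 369 CPM (-2.89 ± 0.26, adjusted p = 6.8e-07; -3.43 and -2.21 by batch). For both genes the mutant values lay below the control values, which describes 2 libraries per genotype and is no further test.

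Il7 stood at 20.8 and 43.7 CPM in mutants against 187 and 260 CPM in controls (-2.80 ± 0.30, adjusted p = 4.82e-06; -3.00 and -2.36 by batch). Ptn, pleiotrophin, was at 25 and 4.86 against 418 and 435 CPM (-4.43 ± 0.35, adjusted p = 2.47e-07; -3.90 and -5.61 by batch). Csf1 went the other way, at 809 and 782 CPM in mutants against 279 and 378 CPM in controls (1.41 ± 0.20, adjusted p = 0.000104; 1.69 and 1.16 by batch). The Csf1 call was lost without control 1 (adjusted p = 0.206), control 2 (0.0711) or mutant 1 (0.0706). Csf1 was found in 79.1% and 92.3% of thinned gated mutant cells and 2.94% and 1.83% of mutant erythroid cells. Angpt1 (-0.49 ± 0.20, adjusted p = 0.0893) and Bmp4 (-0.28 ± 0.21, adjusted p = 0.386) were not called.

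Among adipogenic genes, Lpl was at 651 and 1370 CPM in mutants against 6061 and 6046 CPM in controls (-2.58 ± 0.24, adjusted p = 8.75e-07; -3.06 and -2.02 by batch). Apoe was at 127 and 233 against 2444 and 1906 CPM (-3.58 ± 0.27, adjusted p = 1.8e-07; -4.11 and -2.89 by batch). Over the list, 4 of 14 were lower and 2 higher (Agpat2 and Fabp5), and Cebpa was not called (-0.40 ± 0.24, adjusted p = 0.258). Fabp5 was no longer called without mutant 1 (0.80, adjusted p = 0.45), and Agpat2 was not called with DESeq2 (adjusted p = 0.18) or without control 1, control 2 or mutant 1 (adjusted p = 0.183, 0.0597 and 0.282). Pparg passed in the main test (-1.07 ± 0.29, adjusted p = 0.0147) but not with DESeq2 (adjusted p = 0.34) or without any 1 of the 4 libraries (adjusted p from 0.165 to 0.354).

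Stromal transcription factors were in part lower. Ebf1 was at 772 and 889 against 1530 and 1906 CPM (-0.94 ± 0.18, adjusted p = 0.00153; -0.83 and -0.98 by batch) and Ebf3 at 185 and 282 against 610 and 811 CPM (-1.53 ± 0.21, adjusted p = 5.91e-05; -1.57 and -1.39 by batch). The Ebf1 call was lost without any 1 library (adjusted p from 0.30 to 0.529), and the Ebf3 call without control 2 (0.0573) or mutant 1 (0.150). Foxc1 missed the threshold (-0.57 ± 0.20, adjusted p = 0.0574). Runx2 was lower (-1.13 ± 0.23, adjusted p = 0.00187), at 89.5 and 141 against 226 and 302 CPM, but not with DESeq2 (adjusted p = 0.079) or without any 1 library (0.0529 to 0.416).

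Complement and kininogen genes and antigen presentation genes were mostly lower as well, in 7 of 9 cases with 1 higher (median -2.59) and in 8 of 12 with none higher (median -1.33). Serping1, the C1 inhibitor, was at 110 and 160 against 956 and 709 CPM (-2.59 ± 0.25, adjusted p = 1.57e-06; -2.96 and -2.0 by batch), and the class I gene H2-K1 at 35.4 and 4.86 against 438 and 503 CPM (-4.11 ± 0.36, adjusted p = 4.9e-07; -3.47 and -5.82 by batch). Hp was not called, at 2320 and 2123 against 3012 and 2412 CPM (-0.18 ± 0.18, adjusted p = 0.526).

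Igfbp5 was at 645 and 1661 CPM in mutants against 9606 and 13044 CPM in controls (-3.33 ± 0.23, adjusted p = 8.85e-08; -3.74 and -2.85 by batch), and the proteoglycan genes Dcn and Lum were lower by batch as well (Dcn -5.16 and -3.08, Lum -6.09 and -5.05). Matrix genes as a list were split, 12 higher and 9 lower of 33. Fn1 was the most strongly supported of those that were higher, at 1783 and 1418 CPM in mutants against 173 and 184 CPM in controls (3.29 ± 0.21, adjusted p = 3.86e-08; 3.51 and 3.05 by batch). It was found in 90.7% and 92.3% of thinned gated mutant cells, 18.8% and 10.9% of control members, and 4.41% and 4.76% of mutant erythroid cells. Olfml3 and Vcan were higher too (3.17 ± 0.22 and 2.37 ± 0.20). Fn1, Olfml3, Vcan, Tnc and Col6a3 were also higher in the osteogenic-high control members above; the 2 comparisons share the control libraries. Col8a1 and Col12a1 were too, but between genotypes neither was called with DESeq2 (adjusted p = 0.72 and 0.16), and Col8a1 was at -0.05 in batch 1 and 2.90 in batch 2.

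**Figure D5:**
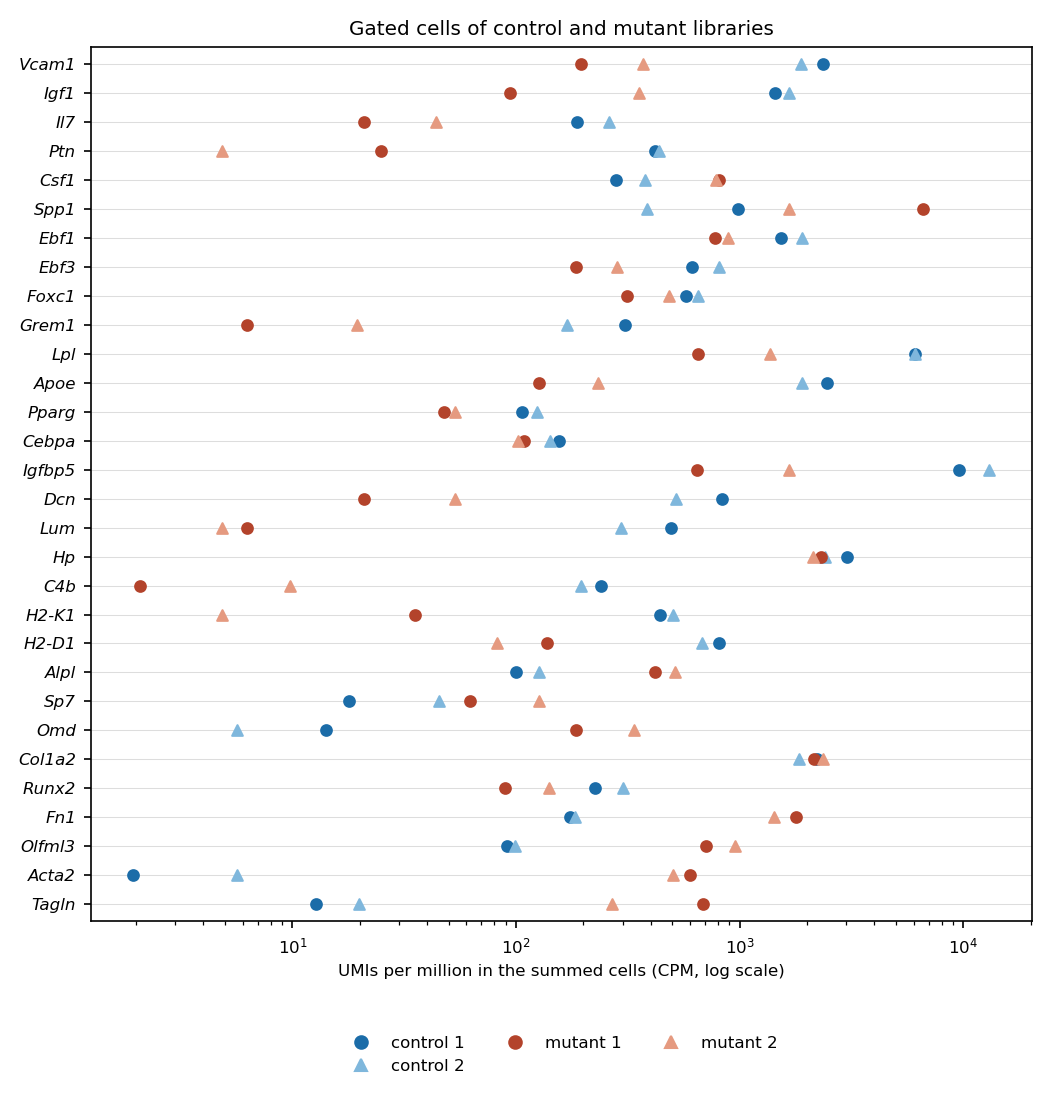
CPM on a log axis of 30 genes in the summed gated cells of control 1, control 2, mutant 1 and mutant 2, grouped by role. Vcam1, Igf1, Lpl and Igfbp5 are lower and Fn1, Olfml3, Alpl and Acta2 higher in both mutant sums than in both control sums.

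Of 21 osteogenic genes, 8 were higher and 1 (Runx2) lower, with a median of 0.40. Alpl was at 416 and 515 CPM in mutants against 99.8 and 127 CPM in controls (2.14 ± 0.21, adjusted p = 1.35e-06; 2.21 and 2.11 by batch), Sp7 at 62.4 and 126 against 17.9 and 45.2 CPM (1.78 ± 0.33, adjusted p = 0.000918) and Omd, osteoadherin, at 185 and 335 against 14.2 and 5.65 CPM (4.13 ± 0.32, adjusted p = 2.11e-07). The Sp7 call was lost without control 1 (adjusted p = 0.281). Alpl was found in 46.5% and 53.8% of thinned gated mutant cells and in 5.88% and 6.41% of mutant erythroid cells. Mutant erythroid cells held a median of 10175 and 11984.5 UMIs.

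Other bone genes were also found in erythroid cells of the mutant libraries. Spp1 was at 6575 and 1661 CPM in mutants against 982 and 387 CPM in controls (2.55 ± 0.21, adjusted p = 3.54e-07; 2.90 and 2.21 by batch), but in mutant 2 it was found in 30.8% of thinned gated cells and 35.0% of erythroid cells. In mutant 1 the shares were 74.4% and 41.2%, and without mutant 1 the call was lost (adjusted p = 0.123). Col1a1 stood at 1715 CPM in gated and 1978 CPM in erythroid cells of mutant 2, and Ibsp at 850 and 788 CPM. Ibsp was not called (0.42 ± 0.19, adjusted p = 0.133). The part of free RNA in the higher calls was not tested.

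The contractile genes Acta2 and Tagln were higher in gated mutant cells, and Acta2 marked a subset of them. Acta2 (chromosome 19, 34241090 to 34255590, minus strand) was at 599 and 505 CPM in mutants against 1.94 and 5.65 CPM in controls (8.12 ± 0.34, adjusted p = 2.26e-10; 8.24 and 5.89 by batch), and 7 of 43 and 1 of 13 cells held 1000 CPM or more. Tagln, another smooth muscle gene, was at 685 and 267 against 12.8 and 19.8 CPM (5.51 ± 0.34, adjusted p = 3.86e-08; 5.87 and 3.65 by batch). The summed level of the 13 pericyte and smooth muscle markers was 1542 and 1044 CPM in mutants and 448 and 387 CPM in controls, and its part in the genotype differences was not tested. The list did not move as 1 group. Cspg4 was higher too (4.20 ± 0.50), from few UMIs. Abcc9 was lower, at 22.9 and 9.72 CPM in mutants against 123 and 130 CPM in controls (-2.65 ± 0.38, adjusted p = 9.22e-05 by edgeR). So was Rgs4, at 18.7 and 4.86 against 107 and 73.4 CPM (-2.65 ± 0.42, adjusted p = 0.000264 by edgeR).

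With Adipoq required of every gated cell, which left 11 and 9 mutant cells and was added after seeing the data, 309 genes were higher and 295 lower (13% of 4632). Niche factors were then lower in 8 of 18 cases and higher in 2, osteogenic genes higher in 4 of 18 with none lower, and complement and kininogen genes lower in 7 of 9 with none higher. Fn1, Olfml3, Acta2, Igf1, Vcam1, Lpl, Igfbp5 and Alpl were called in the same direction in this narrower set. Erythroid genes were lower in 7 of 7 cases. Summed over all gated cells instead, 12 erythroid markers were at 275 and 695 CPM in mutants against 7302 and 1525 CPM in controls. Over all gated cells, the globin differences were larger in batch 1, which holds control 1, than in batch 2. By batch, Hbb-bs was at -4.52 and -0.95, Hbb-bt at -4.51 and -0.09, Hba-a1 at -4.73 and -0.99, and Hba-a2 at -3.69 and -1.59. DESeq2 called Hba-a2 (adjusted p = 2.96e-06) but not Hbb-bs (0.30), Hbb-bt (0.58) or Hba-a1 (0.28). With erythroid-UMI cells left out of control 1 and control 2, 798 genes were higher and 671 lower.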

How the data were processed

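The authors deposited raw UMI counts for each gene in each barcode, obtained with Cell Ranger on mm10: version 5.0.1 for control 1 and mutant 1 and 6.1.2 for control 2 and mutant 2, per the submitters' processing notes. The headers of all matrices but that of mutant 1 name Cell Ranger 4 instead. The batches rest on the notes. The mutant 1 counts cover 3352 called barcodes and the other libraries all barcodes. Totals were 47390414 to 116863081 UMIs per library.

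The gate, list and comparator rules were applied in Python 3.11.15 with numpy 2.4.6 and scipy 1.17.1. Doublets were scored with Scrublet in scanpy 1.11.5 and removed only in an alternative. Counts were summed per library and group and tested in R 4.3.3 by the quasi-likelihood test of edgeR 4.0.16 (TMM factors, filterByExpr, Benjamini-Hochberg threshold 0.05), with the library as a block or, between genotypes, with batch as a term. This leaves 1 residual degree of freedom. Spreads were shared across genes with 6.91 prior degrees of freedom against osteolineage cells, 19.8 in the adipogenic split and 15.6 between genotypes, while in the osteogenic split the estimate was infinite, so that genes of like abundance shared 1 spread and the small p-values there rest on that. DESeq2 1.42.0 was an alternative. The pipeline was run on simulated counts in which gene levels did not differ between libraries or batches. The genotype fit there had no batch term, so that run does not cover the batch model used here. High and low groups are cells above the 67th and below the 33rd percentile of a score, as near as whole gene numbers allow.

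Named genes are list members, gate genes and, per comparison, the 10 with the smallest p in each direction among called genes that kept their sign in each library or batch and reached 50 CPM in a sum. Of 463 list genes, 3 were not found. Positions come from GENCODE M21, which held 32158 of the 32285 gene identifiers. The members, lists and rules were chosen with earlier results of these data known.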

Additional observations from a re-analysis of the deposited data

How the results depend on the processing

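Counts of called genes moved with the settings far more than the named directions did, and the cause was not tested unless stated. Higher and lower genes are given in that order. The main fit against osteolineage cells had 6.91 prior degrees of freedom. The estimate was infinite with library totals only, doublets or erythroid-UMI cells removed, sums of thinned cells, or Cxcl12 of 5000 CPM. Genes of like abundance then shared 1 spread, so those counts do not differ from the main ones by cells or scaling alone. Against osteolineage cells (1635 and 1772), library totals only gave 5585 and 871, DESeq2 854 and 1140, doublets removed 2799 and 2786, erythroid-UMI cells removed 2758 and 2741, sums of thinned cells 927 and 593, and a Cxcl12 minimum of 5000 CPM 2547 higher. In the osteogenic split (112 and 234), DESeq2 gave 9 and 7, at least 10 counts in every sum 39 and 31, sums of thinned cells 18 and 10, Cxcl12 of 5000 CPM 53 and 59, doublets removed 68 and 28, and erythroid-UMI cells removed 63 and 26. In the adipogenic split (13 and 260), DESeq2 gave 0 and 8, with 209 genes at an unadjusted p under 0.05. RLE factors gave 32 higher, library totals only 4 and 85, no low-count filter 45 and 409, at least 10 counts 60 higher, thinning to 4000 UMIs 3 and 95, scores from summed UMIs 38 higher, sums of thinned cells 3 and 20, Cxcl12 of 1000 CPM 4 and 83 and of 5000 CPM 24 and 63, and removal of doublets or of erythroid-UMI cells 31 lower. Between genotypes (745 and 642), DESeq2 gave 228 and 154, no batch term 215 and 217, Cxcl12 of 5000 CPM 306 and 246, Adipoq required 309 and 295, and a mitochondrial maximum of 5% 406 lower. Leaving out each library in turn gave 130 to 388 higher and 189 to 393 lower. Those fits with a library left out also lacked the batch term. Gated cells fell to 20 in mutant 1 at 5000 CPM and to 7 in mutant 2 at 5% mitochondrial UMIs. The correlation of scores in control 2 was -0.4074 at 4000 UMIs and -0.2162 with summed UMIs.

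Signs turned for a few named genes. Against osteolineage cells, Runx2 was 0.39 with library totals only and 0.24 with sums of thinned cells. In the osteogenic split, Blvrb was 0.0169 without erythroid-UMI cells, Apoe 0.0157 at 1000 UMIs and 0.0252 with summed UMIs, and Pparg 0.0203 with DESeq2, 0.0329 at 1000 UMIs and 0.03 with summed UMIs. In the adipogenic split, Fos was -0.17 at 4000 UMIs and -0.45 with summed UMIs, Ptn -0.19 at 4000 UMIs, Col1a1 0.46 at 1000 UMIs and 0.44 at Cxcl12 of 5000 CPM, Ibsp 0.0131 and Tnc 0.0660 at 1000 UMIs, and Junb -0.30 without control 1 and 1.40 without control 2. Between genotypes, Bmp4 ranged from -0.719 to 0.0914 with a library left out (the latter without mutant 2), Prrx1 0.0350 at Cxcl12 of 1000 CPM, Ibsp -0.0368 with Adipoq required, and Hp from -0.403 to 0.0349 with a library left out (the latter without control 1), 0.12 at Cxcl12 of 5000 CPM and 0.45 with Adipoq required. No paired analysis was possible because the libraries' numbers only reflect deposition order; this concerns those numbers alone, since pairing by batch is in the main test, and without the batch term 215 and 217 genes were called between genotypes. Library totals only, removal of erythroid-UMI cells and Adipoq required were chosen after seeing the data. With 47, 43 and 13 cells in 3 of the libraries, depth limits every comparison, and without either control library the within-control comparisons rest on 1 library and have no test.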

Other observations

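The members' most abundant transcripts in the control sums, after Cxcl12 and Igfbp5, included Igfbp4 at 4093 and 4304 CPM, Sparc at 4075 and 3092 CPM, Fstl1 at 2682 and 2923 CPM and Hp at 3012 and 2412 CPM. Igfbp4, an IGF-binding protein, was higher than in osteolineage cells (log2 difference 5.11 ± 0.44, adjusted p = 0.000136 by edgeR), and so was the follistatin-like gene Fstl1 (4.51 ± 0.26, adjusted p = 2.54e-05). Sparc, a matrix protein of bone, was abundant in the members and still lower than in osteolineage cells (-4.05 ± 0.16, adjusted p = 1.59e-05).

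Retinoid genes gave 6 higher and 1 lower of 16 tested against osteolineage cells. Rarres2, the chemerin gene, was at 317 and 297 CPM in stromal cells of control 1 and control 2 against 1.22 and 3.04 CPM (6.78 ± 0.38, adjusted p = 2.39e-05). In gated mutant cells it was at 47.9 and 38.9 CPM (-2.69 ± 0.26, adjusted p = 1.65e-06). Genes of the m6A machinery, the pathway of the targeted gene, gave 1 call of 16 between genotypes, the higher Rbm15 (1.36 ± 0.33, adjusted p = 0.00728), which was not called with DESeq2 (adjusted p = 0.26) or without control 1, control 2 or mutant 1 (adjusted p = 0.206, 0.0851 and 0.222). Klf2, a transcription factor, was at 402 and 253 CPM in gated mutant cells against 35.1 and 59.3 CPM in control members (3.20 ± 0.29, adjusted p = 6.8e-07; 3.66 in batch 1 and 2.14 in batch 2), while Fos was at 133 and 9.72 against 478 and 384 CPM (-2.39 ± 0.37, adjusted p = 0.000181).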
